A study of Homo sapiens with 6 samples.

Results

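The genes described here encode the proteasome subunits and proteasome assembly factors of the PSM family other than the catalytic subunits PSMB5 to PSMB10 and the activator subunits PSME1 and PSME2. They were chosen by symbol from the gene table, which gave 40 genes of 62700. The libraries came from PC3, an established human prostate cancer cell line that grows without androgen. In 3 libraries the cells carried an shRNA (a folded RNA that lowers the messenger RNA it matches) directed at TTC3, the gene of a ubiquitin ligase, and in 3 libraries they carried a control shRNA. Total RNA was sequenced after removal of ribosomal RNA. The labels give the genotype of the first group as TTC3 knockdown and that of the control group as wild type, both in PC3. They state neither the hairpin sequences, the number of hairpins or clones, the time after delivery, nor whether the libraries of a group came from separate cultures. The p-values therefore reflect the spread among the libraries at hand, and that spread may be technical.

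The proteasome is the protease complex that degrades most ubiquitin-tagged proteins of the nucleus and cytosol. Its barrel, the 20S core, stacks outer rings of α subunits (PSMA genes), which gate the entry, on inner rings of β subunits (PSMB genes), some of which cut peptide bonds. The 19S cap has a base, whose ATPase ring (PSMC genes) unfolds and threads the substrate and whose scaffolds bind ubiquitin, and a lid (PSMD genes), which removes the ubiquitin chain. Dedicated chaperones assemble the core (PSMG genes) and the base (PSMD5, PSMD9 and PSMD10), and other caps can take the place of the 19S particle. The transcription factor NFE2L1, paired with a small MAF protein, is known to raise proteasome genes together through an antioxidant response element (ARE) when proteasome activity falls short.

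The promoters below are printed because they hold the core letters of that element, TGACNNNGC, searched on both strands from 250 bases before to 50 bases after the RefSeq start (GRCh38.p14). They belong to the 4 genes with the smallest adjusted p among those that were higher in TTC3 shRNA cells and held the letters, and to PSMA4, the 1 gene that was lower. Each is written 5′ to 3′ on the strand of its gene, and capitals mark the core, which reads as its reverse complement where it lies on the opposite strand. The windows are chr17:63827471-63827770 (+ strand) for 1 of 2 listed starts of PSMC5, chr12:121888540-121888839 (+ strand) for PSMD9, chr2:231056617-231056916 (+ strand) for PSMD1, chr17:67366528-67366827 (- strand) for PSMD12 and chr15:78540536-78540835 (+ strand) for 1 of 3 listed starts of PSMA4.
PSMC5: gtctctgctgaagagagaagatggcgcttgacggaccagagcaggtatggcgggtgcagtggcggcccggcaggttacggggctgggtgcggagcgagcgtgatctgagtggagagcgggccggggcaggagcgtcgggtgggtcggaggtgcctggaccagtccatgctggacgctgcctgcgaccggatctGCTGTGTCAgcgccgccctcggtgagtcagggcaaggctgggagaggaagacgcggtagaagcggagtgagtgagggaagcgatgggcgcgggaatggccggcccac
PSMD9: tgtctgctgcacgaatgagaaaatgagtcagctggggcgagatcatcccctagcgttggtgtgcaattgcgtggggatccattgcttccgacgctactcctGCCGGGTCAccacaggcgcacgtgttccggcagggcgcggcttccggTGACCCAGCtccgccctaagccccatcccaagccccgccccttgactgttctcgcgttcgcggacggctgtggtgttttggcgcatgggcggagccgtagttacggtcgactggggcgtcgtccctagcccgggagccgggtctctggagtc
PSMD1: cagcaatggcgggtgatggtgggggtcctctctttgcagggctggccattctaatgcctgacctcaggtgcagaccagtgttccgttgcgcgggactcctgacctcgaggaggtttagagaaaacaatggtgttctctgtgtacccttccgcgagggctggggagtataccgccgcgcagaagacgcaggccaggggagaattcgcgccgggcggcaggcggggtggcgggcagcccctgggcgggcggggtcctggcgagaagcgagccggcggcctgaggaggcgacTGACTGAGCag
PSMD12: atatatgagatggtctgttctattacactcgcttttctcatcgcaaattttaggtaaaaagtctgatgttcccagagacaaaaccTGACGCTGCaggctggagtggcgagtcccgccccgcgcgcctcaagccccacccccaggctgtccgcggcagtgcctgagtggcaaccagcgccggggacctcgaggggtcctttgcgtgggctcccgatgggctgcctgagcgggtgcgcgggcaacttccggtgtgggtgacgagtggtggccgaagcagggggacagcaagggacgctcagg
PSMA4: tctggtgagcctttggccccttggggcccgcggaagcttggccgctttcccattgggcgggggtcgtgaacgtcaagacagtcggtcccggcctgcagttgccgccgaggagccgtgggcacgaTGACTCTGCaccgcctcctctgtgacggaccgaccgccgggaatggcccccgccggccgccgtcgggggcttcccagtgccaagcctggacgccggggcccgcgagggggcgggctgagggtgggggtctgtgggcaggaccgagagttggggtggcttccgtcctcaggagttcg
PSMD9 holds 2 cores in its window and the other 4 windows hold 1 each. The windows were picked for holding the core and need not lie at the start used most. The PSMC5 transcript with 93% of matched transcript counts in TTC3 shRNA cells and 89.3% in control cells starts at 63827183, outside the printed window. The leading PSMD1 transcript, ENST00000619128.5, held 60.9% in TTC3 shRNA cells and 68.7% in control cells. It starts at 231060356, also outside the printed window. ENST00000373635.9 of PSMD1, which starts inside the window at 231056864, held 33.9% in TTC3 shRNA cells and 5% in control cells. In PSMA4, the only transcript found to start inside the printed window, ENST00000558341.5, held 0.843% in TTC3 shRNA cells and 0.554% in control cells. Across the family, 12 of 36 genes with a promoter in the table (33.3%) held the core in at least 1 window, against 16.1% of 27305 genes. Counted by window, the shares were 27.9% of 43 windows of the family and 13.3% of 35116 windows. The core stood in 8 of the 17 genes with a promoter that were higher in TTC3 shRNA cells and in 3 of the 16 that did not pass the test. The other genes with the core were PSME4, PSMD5, PSMB3, PSMD3, PSMG2, PSMC4 and PSMG1. The letters CCAAT stood in 18 of 36 genes, against 39.7% of all genes, and the palindromic site of nuclear respiratory factor NRF1 (a different protein from NFE2L1) stood in 5 of 36 (13.9%, against 6.98%). Both strands were searched for each. Sites were counted for each motif whether or not they overlapped another motif, and a match is a description of letters only. PSMA7, PSMB1, PSMD4 and PSMG3 had no entry in the promoter table.

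The shRNA target was measured first. TTC3 had 228, 183 and 178 CPM in TTC3 shRNA replicates 1 to 3, against 695, 684 and 680.3 CPM in control shRNA replicates 1 to 3 (CPM, counts scaled to library size with TMM factors). All 3 TTC3 shRNA libraries lay far below the controls, and the log2 fold change was -1.81 ± 0.105 (SE; edgeR adjusted p = 5.65e-05). Libraries held 143246356 to 155526861 counts. Keratin 8, an epithelial marker, was present in both groups (KRT8, 166 ± 24.5 CPM in TTC3 shRNA cells and 165 ± 4.09 CPM in control shRNA cells; SD, n = 3 each). Of the other epithelial markers, KRT18 was higher at a log2 fold change of 0.53 ± 0.159 (SE; edgeR adjusted p = 0.0392), EPCAM was higher at a log2 fold change of 0.32 ± 0.096 (SE; edgeR adjusted p = 0.042), and CDH1, at 0.599 ± 0.131 CPM in TTC3 shRNA cells and 1.97 ± 0.0636 CPM in control shRNA cells, was lower at a log2 fold change of -1.72 ± 0.194 (SE; edgeR adjusted p = 0.000959). The androgen-linked gene TMPRSS2 was lower, at a log2 fold change of -1.04 (adjusted p = 5.19e-05). KLK3, an androgen target, did not pass the filter on low counts, nor did the leukocyte and endothelial markers PTPRC, CD3E and CDH5. Of the other endothelial markers KDR was 54.8 ± 3.38 CPM in TTC3 shRNA cells and 41.1 ± 0.423 CPM in control shRNA cells, PECAM1 2.54 to 3.52 CPM in TTC3 shRNA libraries and 4.50 to 5.47 CPM in control libraries, and VWF under 0.2 CPM throughout; the leukocyte marker CD14 was under 1 CPM. TTC3 shRNA replicate 1 stood apart from replicates 2 and 3: mitochondrially encoded genes took 6.29%, 3.73% and 3.54% of counts in TTC3 shRNA replicates 1 to 3 (5.29% to 5.53% in control libraries), and 7SL and 7SK RNAs took 5%, 8.77% and 10.6% (5.8% to 6.38% in control libraries). The log2 ratio to the control mean also fell with transcript length, by slopes of -0.03, -0.165 and -0.203 per doubling of length in TTC3 shRNA replicates 1 to 3, over 11371 genes outside the family. The part of these differences in the results below was not tested beyond the values given.

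Proteasome genes were more often higher than lower in TTC3 shRNA cells. Of the 40 genes, 38 passed the filter on low counts; 18 of these 38 were higher (47.4%), 1 was lower (2.63%) and 19 did not pass the test (edgeR, adjusted p below 0.05). Over all 24325 genes tested, 15.7% were higher and 17.8% were lower, and among the 9602 protein-coding genes with a mean of at least 10 CPM 26.4% were higher and 17.3% were lower. With library totals as the only scaling, all genes split into 2518 higher and 5356 lower, against 3827 and 4338 with TMM. The median log2 fold change of the 38 genes was 0.22, against -0.018 for all genes and 0.067 for the well expressed protein-coding genes, and 34 of 38 values were above 0. The changes were small: the 18 higher genes lay between 1.16-fold and 1.70-fold, 2 of them at or above 1.5-fold and 0 at 2-fold. In 24 genes all 3 TTC3 shRNA libraries lay above all 3 controls (23.3% of all genes), and in 1 gene they all lay below (27% of all genes). The summed level of the 38 genes was 4879, 5064 and 5085 CPM in TTC3 shRNA replicates 1 to 3, against 3988, 3991 and 3970 CPM in control shRNA replicates 1 to 3. All 3 TTC3 shRNA sums lay above the controls, at 126% of the control mean (120% without PSMD2). CPM are scaled to library size, so these sums measure neither the number of cells nor the total RNA per cell. Such bulk libraries also do not show whether all cells changed or only some.

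The number of calls depended on single libraries. Leaving out control shRNA replicate 1, 2 or 3 gave 10, 7 and 7 higher genes and 0, 0 and 1 lower, and leaving out TTC3 shRNA replicate 1 gave 29 higher and 1 lower. Calls over all genes shifted too. Without control shRNA replicate 1, 2 or 3, 1835, 1869 and 1876 genes were higher and 2711, 2763 and 2757 lower. Without TTC3 shRNA replicate 1, 6674 were higher and 7065 lower. PSMB2, PSMC5, PSMD1, PSMD2, PSMD9, PSMD13 and PSMD14 were higher with every library left out in turn. Scaling by library totals alone gave 9 higher and 1 lower, and removing each library's trend with transcript length gave 11 higher and 3 lower (PSMA4, PSMA6 and PSMB4). Over all genes these settings gave 2518 higher and 5356 lower, and 3100 higher and 5203 lower. Both settings moved the median of all genes, to -0.146 and -0.139. The median of the family lay above that of all genes by 0.237 and 0.251, against 0.236 with TMM. Scaling by library totals moves all genes by about the same amount, so it could hardly change this gap. The length trend was fitted on genes outside the family with a mean of at least 5 CPM, so that setting brings those genes close to 0 by construction. The family median there was 0.112, and the gap of 0.251 is to all genes, not to genes of similar level. The well expressed protein-coding genes, at a median of 0.067 with TMM, were not compared under these settings.

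**Figure D1:**
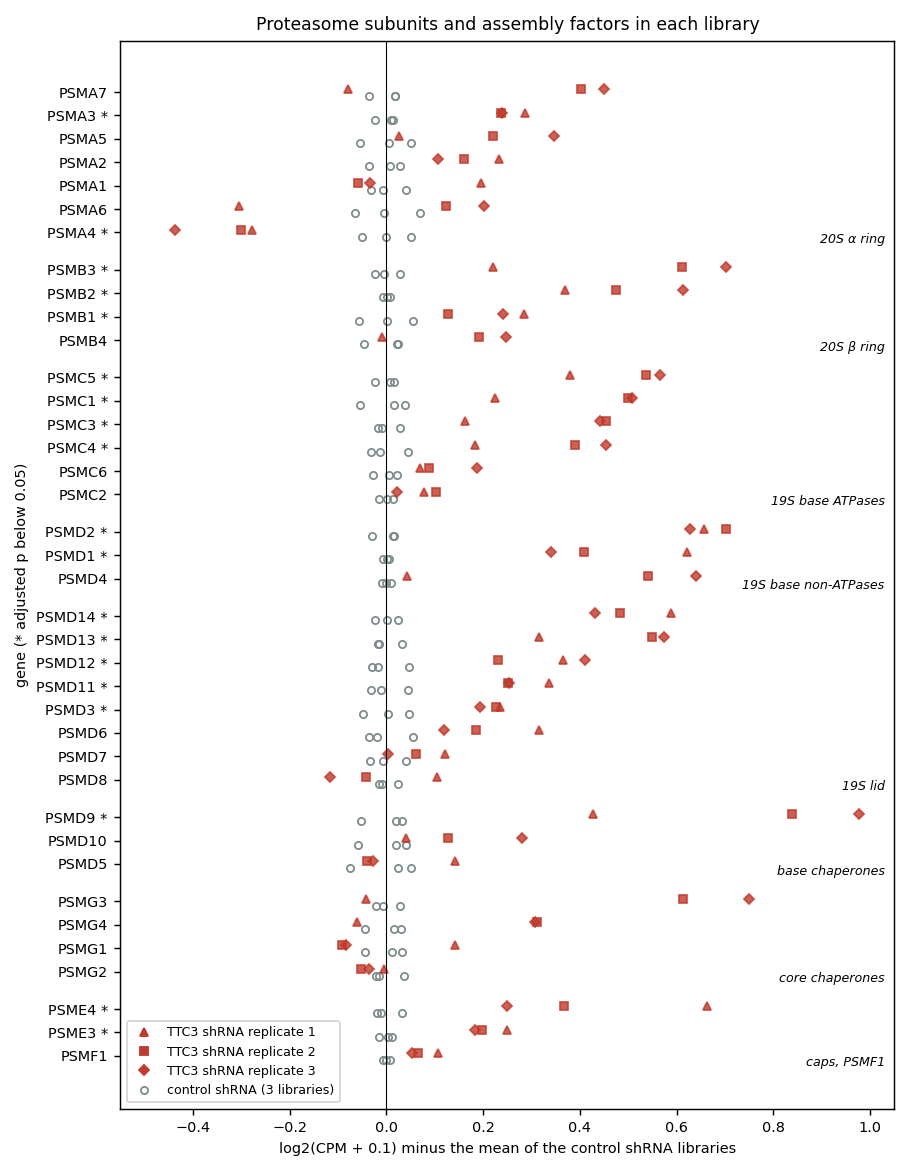
Log2 ratio of each proteasome gene to the mean of the control shRNA libraries, in each TTC3 shRNA and control shRNA library, with genes as rows by role. The control values are close to 0, the TTC3 shRNA values are above 0 for most genes, and PSMA4 is below 0 in all 3 TTC3 shRNA libraries.

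The α ring had 1 gene higher and 1 lower of 7 tested. PSMA4 (chr15:78540405-78552419, + strand) was the single gene of the family that fell. It had 66.9, 65.9 and 60.0 CPM in TTC3 shRNA replicates 1 to 3, against 84.1, 81.2 and 78.4 CPM in control shRNA replicates 1 to 3. The groups did not overlap, and the log2 fold change was -0.34 ± 0.067 (SE; edgeR adjusted p = 0.00915). PSMA4 was also lower with library totals alone and with the length trend removed, but was not called without control shRNA replicate 1 or 2. Within 1 Mb of PSMA4 on chromosome 15, 12 of 23 other tested genes were lower and 0 were higher, with a median log2 fold change of -0.47. Neighbours of some higher members were shifted too. Within 1 Mb of PSME4 the median was 0.468 (2 of 11 higher, 0 lower), and of PSMD1 0.295 (10 of 30 higher, 5 lower). Around PSMD9 it was -0.222 (6 of 47 higher, 11 lower). The part of the region in the values of these members was not tested. PSMA3 (chr14:58244831-58272012, + strand) had 185, 178 and 179 CPM in TTC3 shRNA replicates 1 to 3, against 153, 152 and 149 CPM in control shRNA replicates 1 to 3. All TTC3 shRNA values of PSMA3 were above the controls at a log2 fold change of 0.25 ± 0.055 (SE; edgeR adjusted p = 0.0128), but the value turned to -0.045 with the length trend removed. PSMA3-AS1, annotated on the opposite strand, had 32.4% as many counts as PSMA3 and a log2 fold change of 0.15 ± 0.079 (SE; edgeR adjusted p = 0.18). No source used here says whether reads were counted by strand.

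The other α genes did not pass the test. PSMA2 had 59.4, 56.5 and 54.4 CPM in the TTC3 shRNA libraries and 51.6, 50.9 and 49.3 CPM in the control shRNA libraries, without overlap, at a log2 fold change of 0.17 ± 0.061 (SE; edgeR adjusted p = 0.0741) that was -0.041 with the length trend removed. PSMA5 had 46.9, 53.6 and 58.5 CPM in the TTC3 shRNA libraries and 46.2, 44.3 and 47.7 CPM in the control shRNA libraries. Replicate 1 of PSMA5 lay within the control range and replicates 2 and 3 above it, at a log2 fold change of 0.20 (adjusted p = 0.127). PSMA1, PSMA6 and PSMA7 overlapped between groups, with log2 fold changes of 0.038, 0.022 and 0.28; PSMA7 was at 175 CPM in TTC3 shRNA replicate 1 and at 245 and 253 CPM in replicates 2 and 3, against 181 to 188 CPM in control libraries. Without TTC3 shRNA replicate 1 the α ring had 5 genes higher, and with any 1 control library left out it had 0. PSMA8, the testis-specific α subunit, had 0 counts in all 6 libraries, which allows up to 0.0209 CPM (3 counts of the smallest library; counting error only). The summed α ring level was 793 ± 55.3 CPM in TTC3 shRNA cells and 724 ± 9.19 CPM in control cells (SD, n = 3 each), 109% of control.

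Among the 4 β subunits of the inner rings without a main catalytic site, 3 rose. PSMB2 (chr1:35599544-35641844, - strand) had 104, 112 and 123 CPM in TTC3 shRNA replicates 1 to 3, against 80.3, 79.8 and 80.6 CPM in control shRNA replicates 1 to 3. The lowest TTC3 shRNA library was well above the highest control, and the log2 fold change was 0.49 ± 0.074 (SE; edgeR adjusted p = 0.00319), a 1.4-fold difference. PSMB3 (chr17:38752736-38764231, + strand) had 75.3, 98.6 and 105 CPM in TTC3 shRNA replicates 1 to 3, against 63.5, 64.4 and 65.9 CPM in control shRNA replicates 1 to 3. All 3 TTC3 shRNA libraries were above the controls, replicate 1 the least, at a log2 fold change of 0.53 ± 0.122 (SE; edgeR adjusted p = 0.0162). PSMB1 (chr6:170535117-170553341, - strand) had 47.0, 42.1 and 45.6 CPM in TTC3 shRNA replicates 1 to 3, against 37.1, 40.1 and 38.6 CPM in control shRNA replicates 1 to 3. Its TTC3 shRNA values were above the controls by a small margin at a log2 fold change of 0.22 ± 0.069 (SE; edgeR adjusted p = 0.0468), and the value turned to -0.088 with the length trend removed. PSMB4 had 146, 168 and 175 CPM in the TTC3 shRNA libraries and 143, 149.8 and 149.7 CPM in the control shRNA libraries, overlapping in replicate 1, at a log2 fold change of 0.15 (adjusted p = 0.2); with the length trend removed it was -0.166 (adjusted p = 0.0426). Only PSMB2 was called without control shRNA replicate 1, 2 or 3, or without TTC3 shRNA replicate 2. The thymus-specific catalytic subunit PSMB11 had 9, 2 and 3 counts in TTC3 shRNA replicates 1 to 3, against 12, 8 and 9 counts in control replicates, and was not tested.

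The base ATPases, which unfold the substrate, rose in 4 of 6 genes. PSMC5 (chr17:63827152-63832026, + strand) had 129, 144 and 147 CPM in TTC3 shRNA replicates 1 to 3, against 97.5, 99.6 and 100.1 CPM in control shRNA replicates 1 to 3. The groups were well separated, with replicate 1 the lowest of the TTC3 shRNA libraries, at a log2 fold change of 0.50 ± 0.068 (SE; edgeR adjusted p = 0.00217). PSMC1 (chr14:90256495-90275429, + strand) had 56.8, 68.7 and 69.1 CPM in TTC3 shRNA replicates 1 to 3, against 49.9, 49.1 and 46.8 CPM in control shRNA replicates 1 to 3. The groups did not overlap, at a log2 fold change of 0.42 ± 0.09 (SE; edgeR adjusted p = 0.0123). The pseudogene PSMC1P1 had 50.8% as many counts as PSMC1 and itself rose by a log2 fold change of 0.33 ± 0.067 (SE; edgeR adjusted p = 0.00968), and the summed counts of the pair gave a log2 fold change of 0.39 ± 0.079 (adjusted p = 0.0099). Reads may have been divided between this gene and its copy. PSMC4 (chr19:39971005-39981441, + strand) had 112, 129.8 and 136 CPM in TTC3 shRNA replicates 1 to 3, against 96.9, 102 and 98.1 CPM in control shRNA replicates 1 to 3. PSMC3 (chr11:47418769-47426473, - strand) had 116, 142 and 141 CPM in TTC3 shRNA replicates 1 to 3, against 106, 102 and 103 CPM in control shRNA replicates 1 to 3. In both genes replicate 1 lay closest to the controls and no values overlapped, at a log2 fold change of 0.35 ± 0.082 (SE; edgeR adjusted p = 0.0176) for PSMC4 and 0.36 ± 0.089 (SE; edgeR adjusted p = 0.0205) for PSMC3. PSMC2 and PSMC6 did not pass, at a log2 fold change of 0.068 (adjusted p = 0.382) and 0.12 (adjusted p = 0.18), although their TTC3 shRNA libraries also lay above the controls; both values were below 0 with library totals alone or with the length trend removed. The ATPases had 2, 1 and 1 higher genes without control shRNA replicate 1, 2 and 3, and 2 without TTC3 shRNA replicate 2.

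The non-ATPase subunits of the base rose in 2 of 3 genes. PSMD2 (chr3:184298709-184309054, + strand), a scaffold that docks ubiquitin shuttle factors and the deubiquitinase USP14, had 976, 1008 and 958 CPM in TTC3 shRNA replicates 1 to 3, against 607, 626 and 627 CPM in control shRNA replicates 1 to 3. The lowest TTC3 shRNA library was above the highest control library by a wide margin, and PSMD2 was 1.58-fold higher, at a log2 fold change of 0.66 ± 0.059 (SE; edgeR adjusted p = 0.000339). PSMD2 took 19.6% of the family's summed CPM in TTC3 shRNA cells and 15.6% in control cells. PSMD1 (chr2:231056864-231172827, + strand), the second scaffold, which holds the ubiquitin receptor ADRM1, had 214, 185 and 176 CPM in TTC3 shRNA replicates 1 to 3, against 139, 138 and 139.6 CPM in control shRNA replicates 1 to 3. The TTC3 shRNA values were above the controls, with replicate 1 the highest, at a log2 fold change of 0.46 ± 0.083 (SE; edgeR adjusted p = 0.00628). PSMD4 (chr1:151254703-151267479, + strand), a ubiquitin receptor, had 87.4, 123 and 132 CPM in TTC3 shRNA replicates 1 to 3, against 84.3, 85.4 and 84.8 CPM in control shRNA replicates 1 to 3. Replicate 1 of PSMD4 was close to the controls while replicates 2 and 3 were far above, and the log2 fold change of 0.43 (adjusted p = 0.0582) did not pass. The 2 calls were the same without any 1 of the libraries, and PSMD4 joined them without TTC3 shRNA replicate 1.

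The lid rose in 5 of 8 genes and fell in 0. PSMD14 (chr2:161308038-161411717, + strand), the metalloprotease that cuts ubiquitin chains from the substrate, had 127, 118 and 114 CPM in TTC3 shRNA replicates 1 to 3, against 84.7, 86.0 and 83.2 CPM in control shRNA replicates 1 to 3. No values overlapped, and replicate 1 was the highest, at a log2 fold change of 0.50 ± 0.063 (SE; edgeR adjusted p = 0.0015). PSMD13 (chr11:236546-252984, + strand) had 118, 139 and 141 CPM in TTC3 shRNA replicates 1 to 3, against 93.7, 93.8 and 96.9 CPM in control shRNA replicates 1 to 3. The groups did not overlap and replicate 1 was the lowest of the TTC3 shRNA libraries, at a log2 fold change of 0.48 ± 0.081 (SE; edgeR adjusted p = 0.00478). PSMD12 (chr17:67337916-67366627, - strand) had 244, 222 and 252 CPM in TTC3 shRNA replicates 1 to 3, against 196, 187 and 185 CPM in control shRNA replicates 1 to 3. PSMD11 (chr17:32444261-32483318, + strand), which helps clamp the lid to the core, had 134, 127 and 127 CPM in TTC3 shRNA replicates 1 to 3, against 109.9, 106 and 104 CPM in control shRNA replicates 1 to 3. Both were above the controls in every TTC3 shRNA library, at a log2 fold change of 0.34 ± 0.07 (SE; edgeR adjusted p = 0.0107) for PSMD12 and 0.28 ± 0.059 (SE; edgeR adjusted p = 0.0113) for PSMD11. PSMD3 was 1.16-fold higher at a log2 fold change of 0.22 ± 0.057 (SE; edgeR adjusted p = 0.0245). PSMD6 did not pass at a log2 fold change of 0.21 (adjusted p = 0.0635), and PSMD7 and PSMD8, at log2 fold changes of 0.062 and -0.015, overlapped between groups. Without control shRNA replicate 2 or 3 the lid had 2 higher genes, PSMD13 and PSMD14.

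The summed 19S subunits were 2929 ± 38.6 CPM in TTC3 shRNA cells and 2189 ± 4.1 CPM in control cells (134% of control, 124% without PSMD2), and the 20S subunits 1207 ± 93.1 CPM in TTC3 shRNA cells and 1055 ± 4.31 CPM in control cells (114%; SD, n = 3 each). By call, 11 of 17 19S genes and 4 of 11 tested 20S genes were higher, with median log2 fold changes of 0.35 and 0.20. The difference between these counts was not tested. This 20S set is a part of the core, since the selection rule leaves out the catalytic PSMB5, PSMB6 and PSMB7. Those genes were all higher and summed to 137% of control, so the size of the contrast with the 19S depends in part on the rule. The 20S sum was at 104%, 117% and 121% of the control mean in TTC3 shRNA replicates 1 to 3, and the 19S sum at 132%, 135% and 134%.

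**Figure D2:**
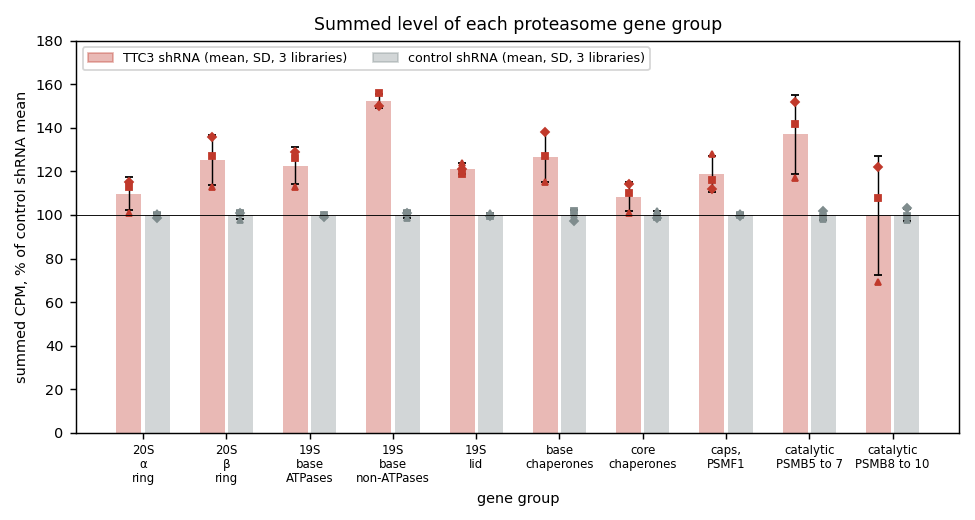
Summed CPM of each gene group as a percentage of the control shRNA mean (bars, mean with SD over 3 libraries; TTC3 shRNA left of control shRNA), with replicate 1 as a triangle, replicate 2 as a square and replicate 3 as a diamond. The 19S base non-ATPases reach 152% in TTC3 shRNA cells, the α ring 109% and the core chaperones 108%, and replicate 1 is the lowest TTC3 shRNA library in the core and ATPase groups but not in the lid or the other caps.

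Of the 7 assembly chaperones, 1 rose. PSMD9 (chr12:121888731-121918297, + strand), a chaperone of the base, had 62.1, 82.7 and 91.0 CPM in TTC3 shRNA replicates 1 to 3, against 44.5, 47.3 and 46.9 CPM in control shRNA replicates 1 to 3. Every TTC3 shRNA library was above every control, replicate 1 by the least, and the 1.7-fold difference, at a log2 fold change of 0.77 ± 0.135 (SE; edgeR adjusted p = 0.00579), was the highest of the family. PSMD10 (gankyrin), at a log2 fold change of 0.15 (adjusted p = 0.173), and PSMD5, at a log2 fold change of 0.026 (adjusted p = 0.818), did not pass. PSMD10 had 58.7, 62.3 and 69.3 CPM in the TTC3 shRNA libraries and 58.7, 57.8 and 54.7 CPM in the control shRNA libraries, so that replicate 1 equalled the highest control. Values of PSMD5 overlapped between groups, at 44.9 to 50.9 CPM in TTC3 shRNA cells and 43.8 to 47.7 CPM in control cells.

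No core chaperone passed the test (0 of 4 by edgeR, where PSMG3 alone had an unadjusted p below 0.05; 1 of 4, PSMG3, by DESeq2). PSMG1 and PSMG2 pair to start the α ring, and PSMG3 and PSMG4 pair to help complete it. PSMG3 (chr7:1567330-1571005, - strand) had 25.6, 40.3 and 44.3 CPM in TTC3 shRNA replicates 1 to 3, against 26.9, 25.9 and 26.2 CPM in control shRNA replicates 1 to 3. Replicate 1 was just below the controls and replicates 2 and 3 were well above them, at a log2 fold change of 0.48 ± 0.188 (SE; edgeR adjusted p = 0.0891). PSMG4 showed a like order at a low level, with 14.4, 18.6 and 18.6 CPM in the TTC3 shRNA libraries and 15.3, 14.6 and 15.2 CPM in the control shRNA libraries, at a log2 fold change of 0.20 (adjusted p = 0.222). PSMG2 had 60.2, 58.2 and 58.9 CPM in the TTC3 shRNA libraries and 61.9, 59.7 and 59.4 CPM in the control shRNA libraries, with overlapping groups, at a log2 fold change of -0.031 (adjusted p = 0.7). PSMG1 had 34.7, 29.5 and 29.7 CPM in the TTC3 shRNA libraries and 32.1, 31.7 and 30.5 CPM in the control shRNA libraries, at a log2 fold change of -0.008 (adjusted p = 0.952), also with overlap. Without TTC3 shRNA replicate 1, PSMG3 and PSMG4 were called higher.

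Of the other regulators, both alternative caps rose. PSME4 (chr2:53864067-53970840, - strand), a large single-chain cap linked to histone turnover, had 246, 200.4 and 184 CPM in TTC3 shRNA replicates 1 to 3, against 159, 153 and 154 CPM in control shRNA replicates 1 to 3. The TTC3 shRNA libraries were all above the controls, replicate 1 by the most, at a log2 fold change of 0.44 ± 0.108 (SE; edgeR adjusted p = 0.0206). PSME3 (chr17:42824385-42843758, + strand), a nuclear cap, had 156, 150.4 and 149 CPM in TTC3 shRNA replicates 1 to 3, against 132, 132 and 129.9 CPM in control shRNA replicates 1 to 3. The groups did not overlap, and the difference was small at a log2 fold change of 0.21 ± 0.055 (SE; edgeR adjusted p = 0.0253). PSMF1 (chr20:1113263-1189415, + strand), a proteasome-binding regulator, had 183, 178 and 176 CPM in the TTC3 shRNA libraries and 169, 171 and 169.7 CPM in the control shRNA libraries. These groups also did not overlap, yet the log2 fold change of 0.075 ± 0.055 (SE; edgeR adjusted p = 0.329) did not pass, and it was -0.052 with library totals alone. Neither cap was called without control shRNA replicate 1, 2 or 3, and PSME3 was not called without TTC3 shRNA replicate 2.

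Levels can be compared between genes only per length, so CPM was divided by the mean transcript length in kilobases (CPM per kb). The 28 structural subunits spanned 14.7 to 285 CPM per kb in TTC3 shRNA cells and 11.1 to 186 CPM per kb in control cells. PSMD2 was the highest in TTC3 shRNA cells at 285 CPM per kb, against 180.0 in control cells, where PSMA7 was slightly higher at 186 (226 in TTC3 shRNA cells). PSMA3 followed at 187 CPM per kb in TTC3 shRNA cells and 157 in control cells, and PSMB4 at 169 in TTC3 shRNA cells and 153 in control cells. The lowest structural subunits were PSMA5, at 14.7 CPM per kb in TTC3 shRNA cells and 12.7 in control cells, and PSMC1, at 14.8 in TTC3 shRNA cells and 11.1 in control cells, whose reads may be shared with PSMC1P1. The core chaperone PSMG4 was the lowest of all tested members at 5.89 CPM per kb in TTC3 shRNA cells and 5.14 in control cells. The transcripts with a known length covered 44.7% to 72.8% of the counts of PSMD8, PSMD1, PSMC2 and PSMG2, so their levels per kb are less certain. Other genes lie over some members: FTSJ3 (127157 counts over the 6 libraries) on the opposite strand of PSMC5 (106851 counts), SPIRE1 (179349) opposite PSMG2 (53956), SLC22A23 (54192) opposite PSMG4 (14460), and ENSG00000258790 (38176) on the strand of PSMA6 (117807).

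**Figure D3:**
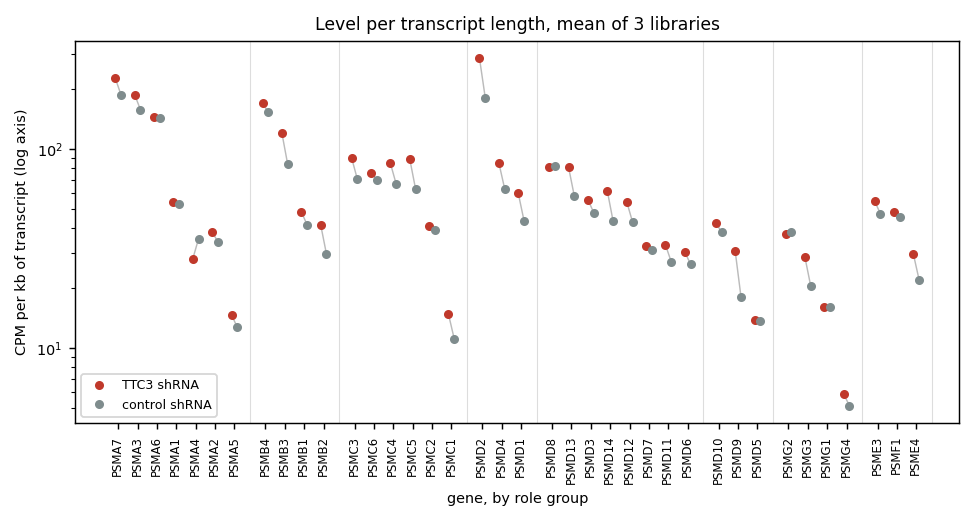
Mean level of each proteasome gene per transcript length (CPM per kb, log axis) in TTC3 shRNA cells and control shRNA cells, by gene. Levels run from 5.89 (PSMG4) to 285 (PSMD2) CPM per kb in TTC3 shRNA cells and from 5.14 (PSMG4) to 186 (PSMA7) CPM per kb in control cells.

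Spread differed between the groups. The coefficient of variation of the 38 genes had a median of 8.2% over the TTC3 shRNA libraries (1.51% to 26.9%) and 2.26% over the control libraries (0.446% to 4.67%). TTC3 shRNA replicate 1 was the lowest of its group for 17 genes and the highest for 18. The per-library median log2 ratio of the 38 genes to the control mean was 0.19, 0.23 and 0.25 in TTC3 shRNA replicates 1 to 3. Of the 19 genes at or under the median transcript length, replicate 1 was the lowest for 11 and the highest for 8, and of the 19 longer genes it was the lowest for 6 and the highest for 10. By test, 7 of the 19 shorter genes were higher, and 11 of the 19 longer genes were higher and 1 was lower, with median log2 fold changes of 0.22 in both. Across the 38 genes the log2 fold change had a Pearson correlation of 0.135 and a Spearman correlation of 0.088 with log2 length, as a description of genes that share the same 6 libraries. With each library's length trend removed, the family median was 0.11 and the values of 16 genes were below 0, among them PSMA3 and PSMB1.

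**Figure D4:**
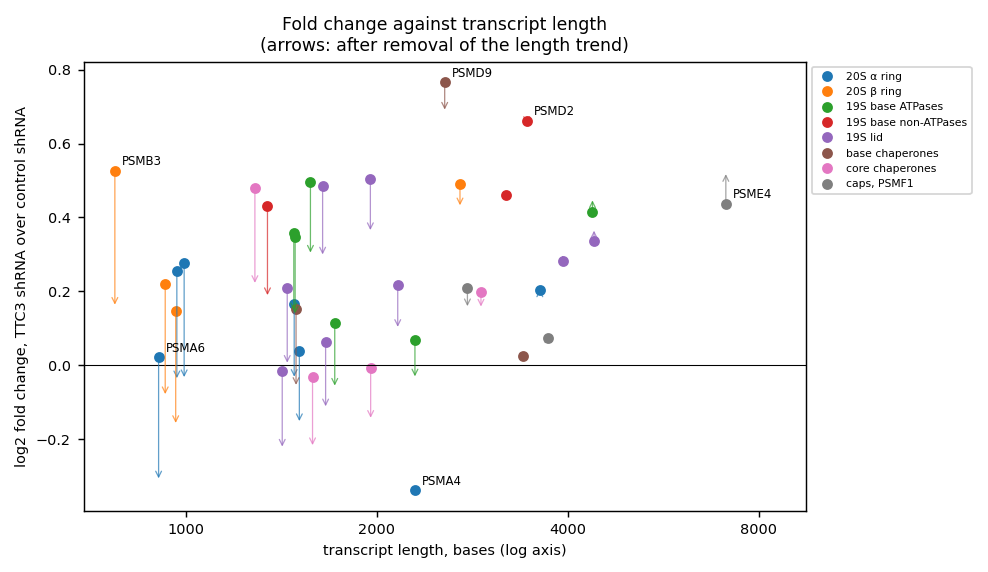
Log2 fold change of each proteasome gene, TTC3 shRNA over control shRNA, against transcript length in bases (log axis), coloured by role; each arrow ends at the value after the length trend of each library was removed. Removing the trend lowers the shorter genes, PSMB3 and PSMA6 among them, and turns PSMA3 and PSMB1 below 0; it leaves PSMD2, PSMD9 and PSMD1 well above 0 and PSMA4 below 0.

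Fewer calls came from single transcripts. Of 120 transcripts of the family found in GENCODE 29, 107 were tested; 6 were higher and 0 lower, in 4 genes, against 3.99% of all 53805 tested transcripts. The main transcript was called for PSMD2 (ENST00000310118.9, 99.6% of the gene's counts in TTC3 shRNA cells and 99.8% in control cells; its level was 976, 993 and 940.0 CPM in TTC3 shRNA libraries, against 611, 632 and 630.0 CPM in control libraries; log2 fold change 0.64, adjusted p = 0.00488). PSMC5 (ENST00000310144.11) had a log2 fold change of 0.56 (adjusted p = 0.0189), PSMD14 (ENST00000409682.8) of 0.48 (adjusted p = 0.0367) and PSMB2 (ENST00000373237.4) of 0.47 (adjusted p = 0.0428). The other called transcripts were minor forms of PSMD2: ENST00000435761.5, at 3.62 to 4.37 CPM in TTC3 shRNA libraries and 1.25 to 1.56 CPM in control libraries, and ENST00000439383.5, which had 0 counts in the control libraries and at most 0.467 CPM in the TTC3 shRNA libraries. PSMD9 was divided between ENST00000541212.6, with 50.7% of its counts in TTC3 shRNA cells and 66.6% in control cells, and ENST00000261817.6, with 48.4% in TTC3 shRNA cells and 32% in control cells. ENST00000261817.6 of PSMD9 had 30.5, 40.5 and 42.1 CPM in TTC3 shRNA libraries, against 13.2, 21.1 and 10.6 CPM in control libraries, without overlap, but missed the threshold (adjusted p = 0.078). In 17 genes 1 transcript held at least 90% of matched transcript counts in control cells. The call count was 0 without control shRNA replicate 1, 2 or 3, 1 without TTC3 shRNA replicate 2 or 3, and 19 without TTC3 shRNA replicate 1.

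The catalytic β subunits excluded from the family are given for comparison. The constitutive PSMB5, PSMB6 and PSMB7 summed to 247, 300 and 321 CPM in TTC3 shRNA replicates 1 to 3, against 207, 209 and 216 CPM in control replicates (137% of control), and all 3 genes rose. The immunoproteasome subunits PSMB8, PSMB9 and PSMB10 summed to 14.9, 23.2 and 26.3 CPM in TTC3 shRNA replicates, against 21.0, 21.4 and 22.2 CPM in control replicates (99.6%), and PSME1 with PSME2 stood at 95.7%. None of these last 5 genes passed the test with TMM scaling and all libraries. The immunoproteasome sum pools unlike values. PSMB9 was at a log2 fold change of -0.76 (edgeR adjusted p = 0.0847), with no overlap between groups. PSMB10 was at 0.405 (edgeR adjusted p = 0.167) and PSMB8 at -0.085 (edgeR adjusted p = 0.767), both with overlap. With any 1 control library left out, 1 of the 8 excluded genes was called higher, against 3 with all libraries. Of these 8 genes 0 were lower, but 3 were with the length trend removed, and 1 was with library totals alone, with DESeq2 or without TTC3 shRNA replicate 1.

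Related gene lists were read against the background shares of 15.7% higher and 17.8% lower over all genes. Among the well expressed protein-coding genes these shares were 26.4% and 17.3%. Factors that join or serve the proteasome had 4 of 19 higher (21.1%) and 1 lower. SEM1, the small lid subunit, was 25.3 ± 1.77 CPM in TTC3 shRNA cells and 18.7 ± 0.776 CPM in control shRNA cells (SD, n = 3 each), at a log2 fold change of 0.44 ± 0.079 (SE; edgeR adjusted p = 0.00635). PAAF1, which binds base ATPases, was 20.6 ± 0.715 CPM in TTC3 shRNA cells and 16.6 ± 1.08 CPM in control shRNA cells at a log2 fold change of 0.30 ± 0.078 (SE; edgeR adjusted p = 0.0228), and PITHD1 28.5 ± 1.89 CPM in TTC3 shRNA cells and 23.6 ± 0.446 CPM in control shRNA cells at a log2 fold change of 0.28 ± 0.072 (SE; edgeR adjusted p = 0.0258). ADRM1, the ubiquitin receptor bound to PSMD1, was higher at a log2 fold change of 0.46 (adjusted p = 0.0415), and ZFAND5, a proteasome activator, was the 1 lower gene at a log2 fold change of -0.34 (adjusted p = 0.0317); POMP, a core maturation factor, did not pass, at a log2 fold change of 0.023 (adjusted p = 0.823).

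The NFE2L1 pathway, which senses a shortage of proteasome activity, had 2 of 14 genes higher and 4 lower. The list was not split into genes that promote and genes that oppose NFE2L1, so its counts and median give no direction for NFE2L1 activity. NFE2L1 itself had 362, 389 and 376 CPM in the TTC3 shRNA libraries and 384, 391 and 398 CPM in the control shRNA libraries, with overlapping groups, at a log2 fold change of -0.058 ± 0.06 (SE; edgeR adjusted p = 0.494). DDI2, the protease that activates NFE2L1, had 32.0, 26.2 and 24.3 CPM in the TTC3 shRNA libraries and 37.4, 37.9 and 37.4 CPM in the control shRNA libraries. Its TTC3 shRNA values were all below the controls, at a log2 fold change of -0.45 ± 0.105 (SE; edgeR adjusted p = 0.0169). OGT, the enzyme that adds N-acetylglucosamine to HCFC1 and other proteins, had 172, 134 and 132 CPM in the TTC3 shRNA libraries and 230.0, 225 and 235 CPM in the control shRNA libraries. OGT was lower in every TTC3 shRNA library, at a log2 fold change of -0.66 ± 0.109 (SE; edgeR adjusted p = 0.00462), while HCFC1 was higher, at a log2 fold change of 0.38 ± 0.08 (SE; edgeR adjusted p = 0.0119). VCP, the segregase that extracts ubiquitylated proteins, was the other higher gene, at a log2 fold change of 0.31 (adjusted p = 0.0365), and BTRC and MAFF were lower, at a log2 fold change of -0.58 (adjusted p = 0.0188) and -0.64 (adjusted p = 0.0326).

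In the ubiquitin supply list 4 of 6 genes were higher. RPS27A, a ubiquitin and ribosomal protein fusion, had 197, 329.6 and 385 CPM in the TTC3 shRNA libraries and 129, 131 and 129 CPM in the control shRNA libraries. All TTC3 shRNA values were above the controls and replicate 1 was the lowest of them, at a log2 fold change of 1.23 ± 0.223 (SE; edgeR adjusted p = 0.00638). UBA1, the main ubiquitin-activating enzyme, was higher at a log2 fold change of 0.32 ± 0.064 (SE; edgeR adjusted p = 0.00948), and the ubiquitin gene UBB at a log2 fold change of 0.68 ± 0.209 (SE; edgeR adjusted p = 0.0431). Of 8 VCP cofactors 2 were higher, UBXN1 at a log2 fold change of 0.70 (adjusted p = 0.0362) and NPLOC4 at a log2 fold change of 0.19 (adjusted p = 0.0414). The COP9 signalosome, a complex built like the lid, had 3 of 10 higher (30%) and 1 lower. The shares higher of the VCP cofactors (25%) and of COP9 were close to that of well expressed protein-coding genes (26.4%). COPS7B was 56.7 ± 0.517 CPM in TTC3 shRNA cells and 35.3 ± 0.624 CPM in control shRNA cells at a log2 fold change of 0.68 ± 0.055 (SE; edgeR adjusted p = 0.000231), COPS9 rose by a log2 fold change of 1.08 ± 0.19 (SE; edgeR adjusted p = 0.00571), and COPS2 fell at a log2 fold change of -0.74 ± 0.135 (SE; edgeR adjusted p = 0.0066). The chaperonin CCT, a folding machine of the cytosol, had 6 of 8 higher, by adjusted p led by CCT4 at a log2 fold change of 0.61 ± 0.061 (SE; edgeR adjusted p = 0.00058), CCT7 at a log2 fold change of 0.87 ± 0.129 (SE; edgeR adjusted p = 0.0029) and TCP1 at a log2 fold change of 0.40 ± 0.065 (SE; edgeR adjusted p = 0.00432).

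Calls in these lists also depended on the libraries. Without any 1 of the 3 control replicates, the higher and lower counts were 1 and 0 for the associated factors, 0 and 1 for the NFE2L1 pathway, 1 and 0 for ubiquitin supply, 0 and 0 for VCP cofactors, 3 and 1 for COP9 and 3 and 0 for CCT. Without TTC3 shRNA replicate 1 they were 7 and 9, 4 and 7, 5 and 1, 2 and 1, 6 and 4, and 8 and 0 in the same order, and without replicate 2 they were 1 and 0, 1 and 1, 2 and 0, 0 and 0, 3 and 1, and 3 and 0. Without TTC3 shRNA replicate 3 they were 2 and 0, 1 and 4, 2 and 0, 1 and 0, 3 and 1, and 3 and 0. With library totals alone the order gave 1 and 3, 1 and 5, 1 and 0, 0 and 0, 2 and 1, and 3 and 0, and with the length trend removed 2 and 3, 1 and 4, 2 and 0, 3 and 0, 2 and 2, and 3 and 0.

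**Figure D5:**
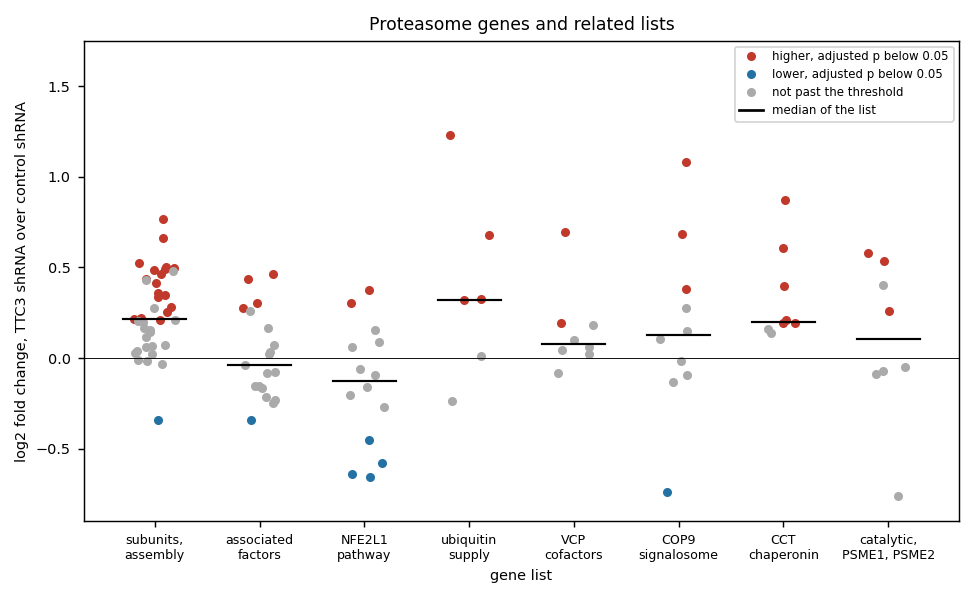
Log2 fold change, TTC3 shRNA over control shRNA, of each tested gene in the proteasome family and in 7 related lists (points; red higher and blue lower at an adjusted p below 0.05, grey not past it), with the median of each list as a line. The family median is 0.22, the ubiquitin supply median 0.32, the CCT median 0.20 and the NFE2L1 pathway median -0.13.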

How the data were processed

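RNA was measured in 6 PC3 libraries, assigned to groups and numbered by title; the titles abbreviate the target, which the series title gives as TTC3. Per the labels' protocols, total RNA was depleted of ribosomal RNA and libraries were directional. The submitters' processing notes name the hg38 build and the tools StringTie, STAR and Trim Galore. Their versions and settings, the annotation release and any use of strand are not stated there. The authors' deposited tables hold estimated counts per gene and per transcript, all whole numbers and without scaling. Overlapping genes and near-identical copies are therefore uncertain.

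The test was edgeR 4.0.16 (R 4.3.3). The function filterByExpr (minimum count 10, total 15) left 24325 genes, followed by TMM scaling, glmQLFit and glmQLFTest over 6 libraries and Benjamini-Hochberg adjustment over all genes tested (threshold 0.05). The SE is the log2 fold change divided by the square root of F. Positions and transcript lengths came from GENCODE 29 (GRCh38, the assembly also called hg38), and a gene's length is the mean of its transcripts weighted by counts. The transcript table held 117688 transcripts, of which 53805 were tested in the same way.

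The members, gene lists and alternatives were chosen with earlier results of these data known. By rule, full values are given for TTC3, for up to 4 genes per role group in order of adjusted p and for every lower member, and up to 3 genes per related list are named in order of adjusted p. ADRM1, ZFAND5, POMP, NFE2L1, VCP, BTRC and MAFF fall outside this rule and were chosen after their values were seen. Alternatives used DESeq2 1.42.0, limma-voom 3.58.1, other scalings and filters, glmTreat against 1.5-fold, a stricter adjusted p (0.01), a replicate block, omission of single libraries and a length-trend offset (lowess, span 0.5). The sum of PSMC1 with PSMC1P1 and the transcript alternatives were chosen after seeing the data. Replicates within a group differed by more than sampling noise, so none was counted as a repeat deposit. Some cell type markers are not reported here.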

Additional observations from a re-analysis of the deposited data

How the results depend on the processing

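The member counts were 18 higher and 1 lower. They were 18 and 1 with DESeq2 size factors or without mitochondrial and the 20 highest genes, 22 and 1 with DESeq2, 17 and 1 with limma-voom, with no filter or with at least 50 counts in 3 libraries. All genes gave 3827 higher and 4338 lower as reported, 4816 and 4903 with DESeq2, and 3641 and 4605 with limma-voom. They gave 3121 and 3789 with no filter, and 3676 and 3952 with at least 50 counts in 3 libraries. Higher members numbered 9 with library totals alone, 0 with glmTreat against 1.5-fold, 7 at an adjusted p of 0.01 and 11 with the length trend removed; lower members numbered 0 with glmTreat and 3 with the length trend removed. Leaving out each library gave 7 to 29 higher, 0 to 1 lower and a member median of 0.221 to 0.262, which was 0.091 with library totals alone and 0.112 with the length trend removed. Over all genes, 2518 were higher with library totals alone, 466 higher and 1567 lower with glmTreat, and 1688 higher and 2394 lower at an adjusted p of 0.01; leaving out each library gave 1835 to 6674 higher and 2711 to 7065 lower. Member transcripts called were 6, 3 with library totals alone and 0 to 19 with each library left out. The cause of these shifts was not tested; a stricter threshold and glmTreat ask for more by their construction.

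The sign of some members turned under another setting, not only where the reported value was close to 0: PSMA7 (0.28), PSMA3 (0.25), PSMB1 (0.22) and PSMD6 (0.21) were at these log2 fold changes as reported. With library totals alone these were PSMA1 -0.086, PSMA6 -0.113, PSMC2 -0.060, PSMC6 -0.014, PSMD5 -0.100, PSMD7 -0.064 and PSMF1 -0.052. With the length trend removed they were PSMA1 -0.161, PSMA2 -0.041, PSMA3 -0.045, PSMA6 -0.316 (adjusted p = 0.0128), PSMA7 -0.042, PSMB1 -0.088, PSMB4 -0.166 (adjusted p = 0.0426), PSMC2 -0.040, PSMC6 -0.065, PSMD6 -0.003, PSMD7 -0.121 and PSMD10 -0.063. PSMG1 was 0.002 with DESeq2 size factors and with DESeq2. With each library left out in turn, PSMA1 ranged from -0.030 to 0.088, PSMA6 from -0.065 to 0.179, PSMD5 from -0.018 to 0.063, PSMD8 from -0.062 to 0.044 and PSMG1 from -0.072 to 0.040. Of all these genes, PSMA3 and PSMB1 had passed the test as reported.

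The replicate numbers are shared only as numbers. Deviations of same-numbered libraries correlated at 0.076, 0.069 and -0.007, and not every library correlated best with its own number. The replicate block gave 15 members higher and 1 lower and 0 member transcripts called. Over all genes it gave 3210 higher and 3719 lower. At 143246356 to 155526861 counts and at least 2169 counts per tested member, the spread between 3 libraries limits these comparisons more than depth does.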
